A study of Mus musculus with 15 samples.

Results

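AP-1 is a family of transcription factors that share a basic leucine zipper (bZIP) domain, and its 8 genes examined here were Jun, Junb, Jund, Fos, Fosb, Fosl1, Fosl2 and Atf3. Their transcript levels were taken from whole transcriptome RNA-seq of mouse embryonic fibroblasts, by selecting every transcription unit whose gene name is one of the 8 symbols. This gave 16 units of the 65522 in the table, over 15 samples. All cells were female and of C57BL/6 background, and each population of the 4 main groups came from a single embryo. The 3 primary WT populations (wild-type CIZ1 +/+, untreated, before passage 5) came from embryo E14.4, embryo E13.1 and embryo E13.8, and the 3 culture-adapted WT lines were derived from the same 3 embryos by prolonged passage. CIZ1 is a nuclear matrix protein, and its loss here is a homozygous gene trap in every cell (CIZ1 -/-), so that all tissues of the embryo lacked it. The 3 primary CIZ1 null populations came from embryo E14.2, embryo E13.15 and embryo E13.17, and the last of these carried an inducible CIZ1 transgene that was left uninduced. The 3 culture-adapted CIZ1 null lines were derived from the same 3 embryos, untreated, and the study's list of lines gives the transgene for adapted E13.17 too, whereas its sample label reads CIZ1 -/- without it. A further untreated transgenic CIZ1 null primary sample is called S13, and 2 transgenic CIZ1 null primary samples, S14 and S15, had received doxycycline at 5 to 10 µg/ml, which switches on GFP-tagged CIZ1. The study reports induction in E13.17 and in another transgenic null population, so that a treated sample shares its embryo with untreated E13.17. The labels do not give the embryos of S13, S14 and S15, and no pairing was made.

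AP-1 proteins bind DNA as pairs joined through their leucine zippers. Jun proteins can pair with themselves or with Fos proteins, whereas Fos proteins need a Jun partner, and ATF3 can pair with either itself or Jun proteins. The paired factors recognise the heptamer TGANTCA (the TRE) or the related octamer TGACGTCA (the CRE) in promoters and enhancers. In fibroblasts members such as Fos, Fosb, Junb and Atf3 are known as immediate-early genes. These are transcribed within minutes of serum, growth factor or stress signals and have short-lived transcripts. Jund is known for steadier expression. Fosl1, which encodes FRA-1, and Fosl2, which encodes FRA-2, are themselves regulated by other AP-1 proteins.

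The sequences just upstream of Jun and Fos are shown because these were the members whose transcript levels passed the test on culture adaptation. They are the 250 bases before the RefSeq start of each gene in GRCm38.p6, 5′ to 3′ on the gene's own strand, at chr4:95052223-95052472 (minus strand) for Jun and chr12:85473640-85473889 (plus strand) for Fos. RefSeq promoter sequences were matched for 7 of the 8 members. Capitals mark matches, on either strand, to TGANTCA, TGACGTCA, the variant octamer TGACATCA, the shorter TGACG that also forms the start of the CRE, and the CArG box, the binding motif of serum response factor.
Jun: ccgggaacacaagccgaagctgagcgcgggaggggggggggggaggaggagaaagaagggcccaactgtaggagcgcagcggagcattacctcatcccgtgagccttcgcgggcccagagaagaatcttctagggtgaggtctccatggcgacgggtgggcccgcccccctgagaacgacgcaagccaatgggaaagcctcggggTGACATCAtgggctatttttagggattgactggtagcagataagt
Fos: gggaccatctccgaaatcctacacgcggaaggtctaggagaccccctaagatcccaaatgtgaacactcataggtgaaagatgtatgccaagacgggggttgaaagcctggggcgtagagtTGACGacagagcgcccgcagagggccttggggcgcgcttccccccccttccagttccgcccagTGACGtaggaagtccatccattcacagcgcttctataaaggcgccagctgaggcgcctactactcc
Jun held the octamer TGACATCA, which was present in 2.93% of the 32851 mouse promoter windows of the same length. Fos held TGACG at 2 places, and 17.8% of all windows held that pentamer at least once. Windows around the single TGACG of Fosb and of Junb are given for comparison, at chr7:19310086-19310120 and chr8:84978835-84978869, both on the minus strand.
Fosb: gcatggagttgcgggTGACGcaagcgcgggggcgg
Junb: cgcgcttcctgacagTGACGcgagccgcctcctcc
Atf3 held the complement of TGACG close to its start, and no motif of the 5 was found in the windows of Jund and Fosl2. The heptamer TGANTCA, TGACGTCA and the CArG box were in none of the 7 windows, against 6.75%, 1.55% and 1.47% of all windows. Sequence more than 250 bases upstream was not searched, so such motifs may lie there. The pentamer was added after the sequences had been read. These matches describe letters in a short window and say nothing of binding.

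Levels are given in FPKM, fragments per kilobase of transcript, scaled to the mapped fragments of the library, so that genes of different length can be compared. For each member the unit on the gene's own strand was used, a choice made after values had been seen but from annotation alone. The library kit keeps no strand, and reads of a gene and of a unit on the opposite strand cannot be told apart. The opposite unit of Junb carried 0.668 to 0.834 of the level of its own-strand unit in every sample, and that of Fosl2 carried 0.564 to 0.734. Those of Fos, XLOC_013159 and XLOC_013160, carried 0 to 4.23 and 0.286 to 0.951. Those of Fosb, XLOC_049754 and XLOC_049755, carried 0.162 to 2.47 and 0 to 2.06. For these members the level of the own-strand unit therefore holds part of the signal at the locus. The locus that the table gives for Jun, chr4:95049034-95167318, is shared by 4 units, among them the antisense unit Junos (0.536 to 7.05 FPKM over the 15 samples). Jund shares its locus with Gm11175 (27.5 to 98.2 FPKM) and Fosl1 with Ccdc85b (11.9 to 60.5 FPKM).

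Ciz1 itself was at 19.0 to 25.0 FPKM in primary WT and 18.7 to 24.1 FPKM in adapted WT populations, 0.171 to 0.279 FPKM in the 3 primary CIZ1 null populations, 0.0546 to 0.724 FPKM in adapted CIZ1 null lines and 191 to 296 FPKM after doxycycline. The highest untreated null value was that of adapted E13.17. None of the 9 fibroblast markers was under 0.1 FPKM throughout any group, but Thy1 was at 0 FPKM in adapted WT E13.8 and 0.215 FPKM in adapted CIZ1 null E13.17, against 168 to 584 FPKM in the other adapted lines. The summed level of the 9 was 8157 to 8849 FPKM in primary WT against 2695 to 4788 FPKM in adapted WT cells. In CIZ1 null cells it was 8597 to 8779 FPKM in primary against 2341 to 4579 FPKM in adapted cells. Not every marker followed the sum. Fitted differences were below 0 for 7 and above 0 for 2 of the 9 in WT, and for 6 and 3 in CIZ1 null adaptation. Dcn rose from 31.1 to 905 FPKM in E14.4 and from 68.5 to 993 FPKM in E14.2. It fell only in E13.1, from 24.1 to 0.984 FPKM. The 5 leukocyte markers summed to 16.03 to 31.0 FPKM in primary WT, 2.15 to 8.77 FPKM in adapted WT, 8.55 to 87.2 FPKM in primary CIZ1 null and 3.803 to 15.1 FPKM in adapted CIZ1 null cells. Of these markers 0 of 9 fibroblast and 1 of 3 tested leukocyte genes were called in WT adaptation by the test described below, and 3 of 9 and 0 of 3 in CIZ1 null adaptation, all lower. Epithelial markers summed to 1.38 to 3.38 FPKM in primary WT and 1.15 to 6.92 FPKM in primary CIZ1 null cells. They were near 0 in adapted cells (at most 0.493 FPKM summed), with 5 of 6 under 0.1 FPKM throughout each adapted group. Muscle markers summed to 4.57 to 11.5 FPKM in primary and 0.219 to 0.237 FPKM in adapted WT cells, and to 4.65 to 8.35 FPKM in primary and 0 to 0.066 FPKM in adapted CIZ1 null cells, and the single tested one, Des, was called lower in both adaptations (log2 differences -2.75 and -2.84). Endothelial markers summed to at most 2.55 FPKM and neural markers, among which Tubb3 had no unit, to at most 26.7 FPKM in any sample. The neural maximum was that of adapted WT E13.1, with Map2 at 23.6 FPKM. The lowest adapted WT sum was 0.566 FPKM, and adapted CIZ1 null lines were at most at 0.280 FPKM. The depth of the libraries was estimated from the lowest values, relative to primary WT E14.4, as 1.0 to 1.63 in the 6 primary and 0.54 to 1.18 in the 6 adapted populations. Markers and depth thus moved with adaptation, and their part in the results below was not tested.

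In primary WT cells the family was led by Junb at 83.2 ± 41.9 FPKM (SD, n = 3), Fosl1 at 67.9 ± 21.0 FPKM and Jun at 61.1 ± 8.02 FPKM, and neighbours in this order overlapped. Jund (35.9 ± 6.55 FPKM) lay below every primary WT value of Jun, and overlapped Fosl2 (32.0 ± 5.52 FPKM). Fos (5.69 ± 1.18 FPKM), Fosb (3.97 ± 4.58 FPKM) and Atf3 (3.54 ± 3.66 FPKM) formed the lowest tier, below every value of Fosl2 and overlapping each other. In adapted WT cells Junb (36.3 ± 4.53 FPKM), Fosl1 (36.2 ± 16.6 FPKM), Fosl2 (27.5 ± 8.15 FPKM), Jun (25.0 ± 6.80 FPKM) and Jund (23.5 ± 4.96 FPKM) each overlapped the next. Fosb was the lowest member there, at 0.521 ± 0.153 FPKM, with no overlap with Fos (2.53 ± 0.511 FPKM). The summed level of the 8 members was 219 to 393 FPKM in primary and 130 to 178 FPKM in adapted WT populations, which did not overlap. It was 199 to 252 FPKM in primary and 112 to 190 FPKM in adapted CIZ1 null populations, which did not overlap either.

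**Figure D1:**
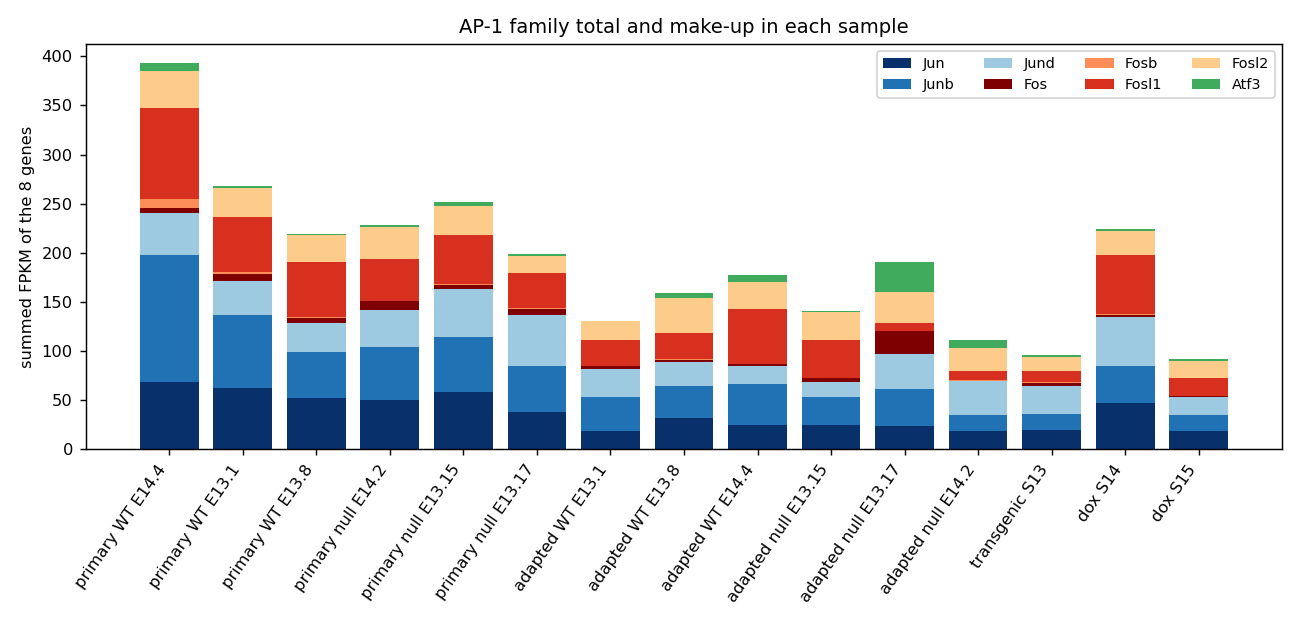
Stacked bars give the FPKM of the 8 AP-1 genes in each of the 15 samples, so that bar height is the summed FPKM, with samples ordered by group and named by embryo or sample number. Primary WT E14.4 is the tallest at 393 FPKM, and the Fos and Atf3 bands are widest in adapted CIZ1 null E13.17.

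The make-up of this sum also differed between culture states. Fosl2 gave 9.76% to 12.9% of it in primary WT and 14.8% to 22.4% in adapted WT populations, with no overlap. Jun gave 17.4% to 24.0% in primary WT and 13.9% to 19.9% in adapted WT populations, which overlapped. In CIZ1 null cells Fosl2 gave 8.79% to 14.3% in primary and 16.6% to 21.3% in adapted populations. Jun gave 19.2% to 23.0% in primary and 12.6% to 17.4% in adapted CIZ1 null populations. Neither share overlapped between the CIZ1 null groups. These shares are descriptions and were not tested.

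The effect of culture adaptation was examined first in WT cells. Jun and Fos were lower in adapted than in primary WT cells, and the other members did not pass the test, although 6 of the 7 members other than Fosb had fitted differences below 0. Fosb is left out of such counts because it reached the minimum level only through the primary cells in which it was high. The median difference of the 7 was -0.92 on the log2(FPKM + 1) scale, against -0.05 over all 19919 units tested. At an adjusted p under 0.05 (limma, Benjamini-Hochberg over all units tested), 2 of 8 members were called, both lower, where 9.55% of all units were called in either direction and 6.68% were called lower. In bulk samples a lower level can reflect fewer cells with the transcript or less of it per cell, which cannot be told apart.

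Jun, the founding Jun protein and a target of JNK signalling, was at 68.5, 62.1 and 52.6 FPKM in primary WT populations (embryo E14.4, then E13.1, then E13.8, an order kept for WT cells throughout), and at 25.2, 18.1 and 31.7 FPKM in the adapted lines of the same embryos. The groups did not overlap. Its log2 difference was -1.28 (SE 0.239, limma adjusted p = 0.0294). Leaving out any of the primary WT populations raised the adjusted p of Jun to between 0.108 and 0.125, with differences of -1.19 to -1.38, and the number of units called in the whole table fell from 1902 to between 62 and 70. With embryo as a block, which pairs each adapted line with its own primary population, the adjusted p of Jun was 0.0686.

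Fos, the prototype partner of Jun, was at 5.18, 7.04 and 4.85 FPKM in primary WT populations, and at 2.11, 3.10 and 2.39 FPKM in the adapted lines. All 3 adapted values lay below all 3 primary ones. The log2 difference was -0.92 (SE 0.21, limma adjusted p = 0.0455). The call was lost with embryo as a block (adjusted p = 0.0700) and without any single population except adapted E13.1 (adjusted p = 0.0619 to 0.157). The opposite-strand units of Fos, XLOC_013159 and XLOC_013160, had log2 differences of -0.08 and -0.30 here (limma adjusted p = 0.848 and 0.518). They had no call in any comparison, so that the Fos call rests on the own-strand unit alone.

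Junb, an immediate-early Jun protein, was at 129, 74.5 and 46.4 FPKM in primary WT populations, and at 41.2, 35.3 and 32.3 FPKM in the adapted lines. The primary values spread over a wider range than the adapted ones and stayed above them. The log2 difference of -1.06 (SE 0.364) had a limma adjusted p of 0.109. Jund was at 43.0, 34.7 and 30.1 FPKM in primary WT populations and at 18.1, 27.9 and 24.6 FPKM in the adapted lines, again without overlap, and its difference of -0.60 (SE 0.227) had an adjusted p of 0.135.

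Fosl1, a Fos protein known for its part in migration and invasion, was at 92.2, 56.1 and 55.5 FPKM in primary WT populations, and at 55.4, 26.1 and 27.1 FPKM in the adapted lines. The adapted E14.4 line lay just under the lowest primary population. The log2 difference was -0.93 (SE 0.354, limma adjusted p = 0.134), and without adapted E14.4 it was -1.28 with an adjusted p of 0.0357. Fosb was at 9.24, 1.75 and 0.916 FPKM in primary WT populations and at 0.459, 0.409 and 0.696 FPKM in the adapted lines, a difference of -1.32 (SE 0.607, adjusted p = 0.197). Primary E14.4 stood far above the other populations, primary E13.1 also lay above every adapted value, and primary E13.8 was close to the highest of them. With primary E14.4 left out, Fosb no longer reached the minimum mean of 1 FPKM.

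Fosl2 overlapped between the groups, at 38.3, 29.4 and 28.3 FPKM in primary WT populations and 27.6, 19.3 and 35.6 FPKM in the adapted lines. Atf3, a stress-responsive member, also overlapped, at 7.59, 2.55 and 0.467 FPKM in the primary populations and 7.41, 0.214 and 4.87 FPKM in the adapted lines of the same embryos. These were the members with the smallest fitted differences, of -0.24 for Fosl2 (95% interval -0.86 to 0.38) and 0.14 for Atf3 (-2.01 to 2.29). Without Fosb, 5 of 7 members (Jun, Junb, Jund, Fos and Fosl1) were lower without overlap in adapted WT cells, where 21.4% of all units tested were.

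**Figure D2:**
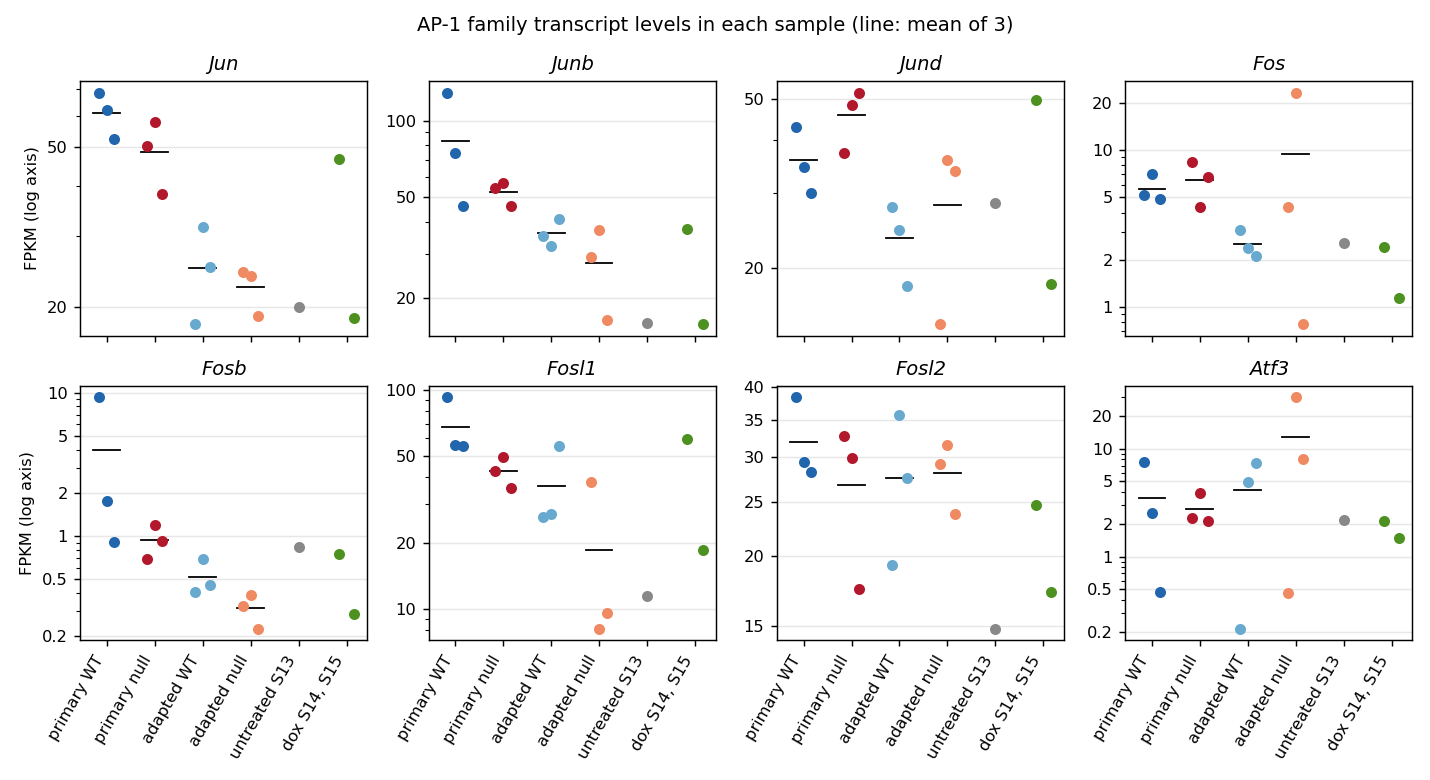
Each panel plots 1 AP-1 gene, with FPKM on a log axis against group, a point per sample and a line at the mean of the 3 populations of each of the 4 main groups (the primary null group includes transgenic E13.17). Jun lies at 52.6 FPKM or above in primary WT and at 31.7 FPKM or below in both adapted groups, while Fos and Atf3 spread most in adapted CIZ1 null lines.

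The same adaptation was then compared in CIZ1 null cells, where Jun was again lower. Of the 7 members that reached the minimum level (Fosb did not), 1 was called, against 4.86% of all 20044 units tested in either direction and 3.47% lower. The median log2 difference of the 7 was -0.77, against -0.04 over all units. Jun was at 50.3, 57.9 and 38.3 FPKM in primary CIZ1 null populations (embryo E14.2, then E13.15, then E13.17, an order kept for null cells throughout) and at 19.0, 24.4 and 23.9 FPKM in the adapted lines. The groups were separate and the log2 difference was -1.08 (SE 0.218, limma adjusted p = 0.0470). This call lay close to the threshold. It was lost with embryo as a block (adjusted p = 0.104), after quantile normalization (0.0646), with all 4 untreated primary null samples (0.219), and without any single population other than adapted E13.15 (0.0664 to 0.189).

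Junb was at 54.2, 56.7 and 46.2 FPKM in primary CIZ1 null populations and at 16.4, 29.2 and 37.1 FPKM in the adapted lines, a log2 difference of -0.97 (SE 0.309, limma adjusted p = 0.105). Jund was at 37.4, 48.3 and 51.8 FPKM in primary and 33.8, 14.8 and 36.0 FPKM in adapted cells of the same embryos, a difference of -0.77 (SE 0.361, adjusted p = 0.212). Jun, Junb and Jund were the 3 of 7 members that lay lower in adapted null cells without overlap, where 19.6% of all units did. Fosl1 was at 42.5, 49.4 and 35.6 FPKM in primary CIZ1 null populations and at 9.60, 38.0 and 8.09 FPKM in the adapted lines. Adapted E13.15 thus kept a level within the primary range and the other lines did not. The log2 difference was -1.47 (SE 0.552, limma adjusted p = 0.142), which became -2.13 (adjusted p = 0.0121) when the adapted E13.15 line was left out.

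Fos and Atf3 varied most between the adapted CIZ1 null lines. Fos was at 8.47, 4.31 and 6.70 FPKM in primary CIZ1 null populations, and at 0.776, 4.34 and 23.3 FPKM in the adapted lines. Atf3 was at 2.29, 3.92 and 2.14 FPKM in the primary populations and 8.06, 0.463 and 29.9 FPKM in the adapted lines. Adapted E13.17, the null line in which Thy1 was near 0, held the highest Fos and Atf3 values of the 15 samples, and Fos and Atf3 made up 12.3% and 15.7% of its family sum. The fitted differences were -0.25 for Fos (95% interval -2.39 to 1.89) and 1.002 for Atf3 (-1.46 to 3.46), and without adapted E13.17 they were -1.24 and -0.03. Fosb was at 0.694, 1.19 and 0.926 FPKM in primary and 0.226, 0.328 and 0.386 FPKM in adapted CIZ1 null cells. Fosl2 showed no separation, at 32.8, 29.9 and 17.5 FPKM in primary and 23.7, 29.1 and 31.6 FPKM in adapted null cells.

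**Figure D3:**
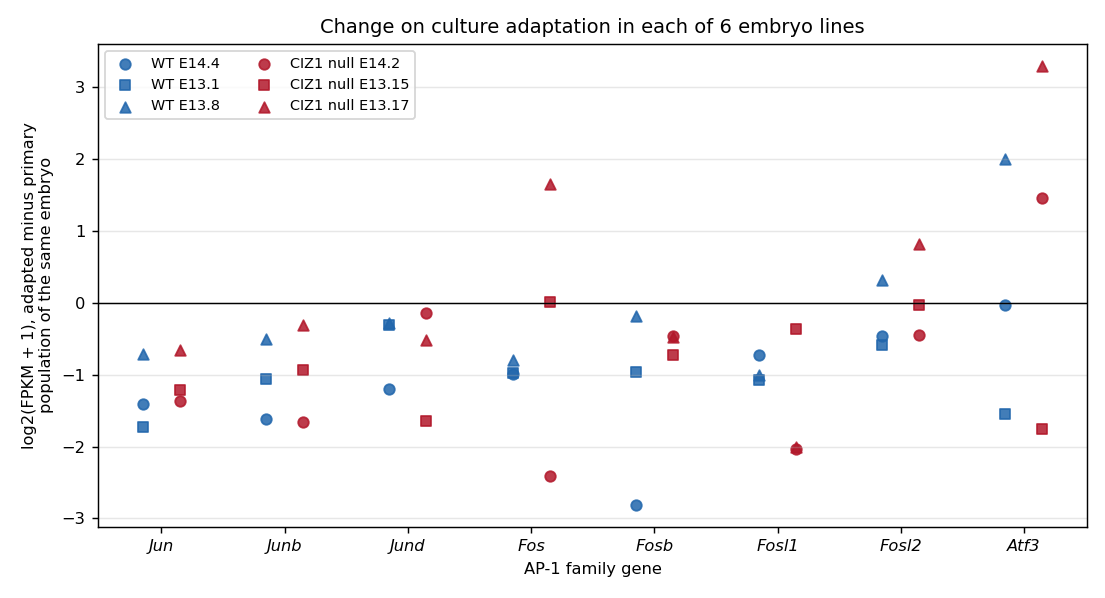
The difference in log2(FPKM + 1) between each adapted line and the primary population of the same embryo is plotted for the 8 genes, with WT lines in blue, CIZ1 null lines in red and a symbol for each embryo. All 6 points of Jun, Junb, Jund, Fosb and Fosl1 lie below 0, and those of Atf3 run from -1.75 to 3.30. The points are those of own-strand units.

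Set against the primary population of its own embryo, each of the 6 adapted lines was lower for 4 of the 7 members other than Fosb, namely Jun, Junb, Jund and Fosl1. The own-strand unit of Fosb was also lower in each, with every adapted value under the minimum level. Its opposite-strand unit XLOC_049754 was higher in adapted E13.8 (0.240) and E13.17 (0.136) and lower in the other lines. The unit XLOC_049755 was higher in adapted E13.17 (0.272) and lower in the others. Of all 20046 units, 18.5% were lower in 6 of 6 lines. The line differences of Jun ran from -1.72 to -0.66 and those of Junb from -1.66 to -0.31. Fos was lower in 4 of 6 lines, Fosl2 in 4 and Atf3 in 3. Whether the change on adaptation differed between genotypes was tested as an interaction over the 12 populations, and 0 of 8 members were called by limma, as were 0 of 20046 units (0.0%). At an unadjusted p under 0.05 the interaction counted 0 members and 928 units. The interval of the interaction for Jun was -0.52 to 0.93, and for Atf3 it was as wide as -2.45 to 4.17.

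Loss of CIZ1 was compared in primary cells between the 3 WT and 3 CIZ1 null populations. No member passed the test (0 of 8 by limma), and 1 of 8 had an unadjusted p under 0.05. Over all units, 1 of 19566 was called (0.00511%), which was Ciz1, and 1225 had an unadjusted p under 0.05. The member closest to a call was Fosl1, at 55.5 to 92.2 FPKM in WT and 35.6 to 49.4 FPKM in CIZ1 null populations. It was the only member without overlap, lower in null cells, where 11.9% of all units did not overlap in either direction, and its log2 difference was -0.64 (95% interval -1.18 to -0.09, adjusted p = 0.776). Jund had the highest fitted difference, 0.35 (-0.08 to 0.78), with 30.1 to 43.0 FPKM in WT and 37.4 to 51.8 FPKM in null cells. The intervals were -0.76 to 0.10 for Jun, -1.35 to 0.26 for Junb, -0.44 to 0.71 for Fos, -2.35 to 0.41 for Fosb, -0.88 to 0.31 for Fosl2 and -1.35 to 1.47 for Atf3. These comparisons use the same primary populations as the adaptation contrasts and are not independent of them.

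In adapted cells, loss of CIZ1 gave 0 of 7 members called by limma and 0 of 7 at an unadjusted p under 0.05. Over all units 1 of 19976 was called (0.00501%), again Ciz1, and 804 had an unadjusted p under 0.05. No member separated the genotypes, where 8.28% of all units did not overlap in either direction. Jun was nearest to 0 among the Jun genes, with a log2 difference of -0.13 (95% interval -0.77 to 0.52). The interval was wide for Fosl1 (-2.64 to 0.30), Fos (-1.30 to 2.91) and Atf3 (-1.98 to 3.83), whose adapted null lines differed most from each other.

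**Figure D4:**
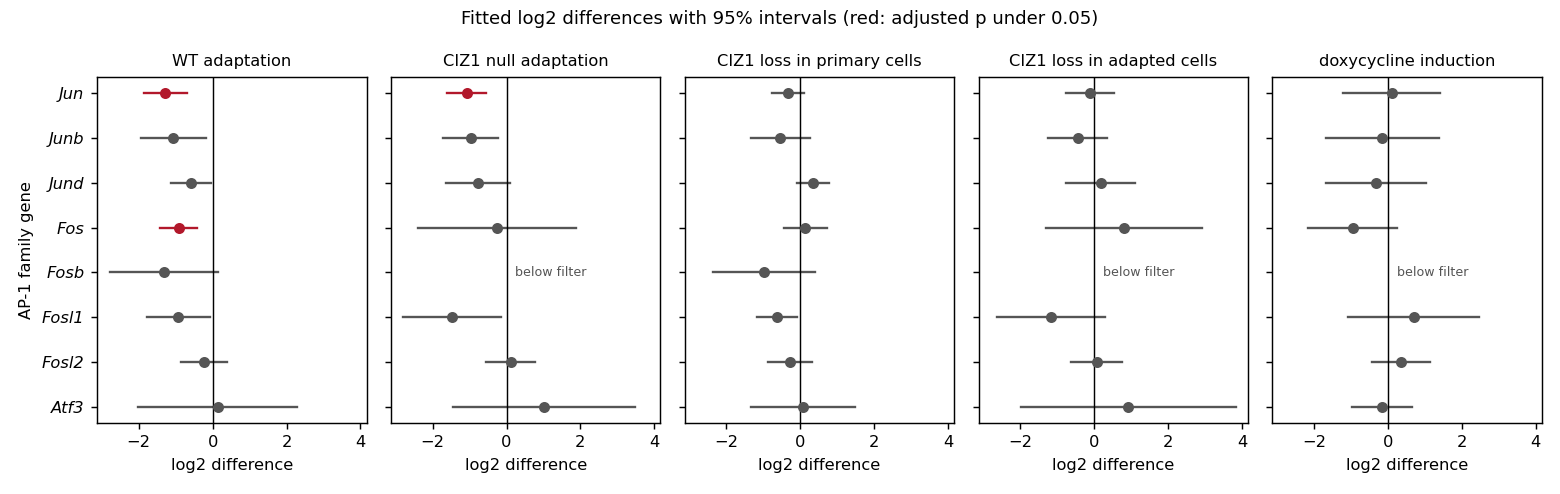
Each panel gives the fitted difference in log2(FPKM + 1) with its 95% interval for the AP-1 genes in 1 comparison, as adapted minus primary, CIZ1 null minus WT, or doxycycline-treated minus untreated. Red marks an adjusted p under 0.05, which holds for Jun and Fos in WT adaptation and for Jun in CIZ1 null adaptation, and genes under a mean of 1 FPKM are marked as below filter.

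Re-expression of GFP-CIZ1 was compared between the 2 doxycycline-treated samples S14 and S15 and the 2 untreated transgenic samples, E13.17 and S13. No member was called (0 of 7 by limma, and 0 of 7 at an unadjusted p under 0.05), where 2 of 19768 units were (0.0101%) and 347 had an unadjusted p under 0.05. The treated samples differed from each other for most members. Fosl1 was at 59.8 FPKM in S14 and 18.5 FPKM in S15, against 35.6 FPKM in untreated E13.17 and 11.4 FPKM in S13. Jun was at 46.9 and 18.8 FPKM in the treated samples and at 38.3 and 20.0 FPKM in the untreated ones. By the study the treated samples came from E13.17 and another embryo, so that their spread includes a difference between embryos. The spread of the untreated samples may include it too. The labels do not tie treated to untreated samples, and the test made no use of pairing. Fos was at 2.40 and 1.14 FPKM in the treated and 6.70 and 2.56 FPKM in the untreated samples. Both treated values lay below both untreated ones, as they did for 10.8% of all units. The log2 difference of Fos, -0.96, had a 95% interval of -2.16 to 0.24. Its opposite-strand unit XLOC_013159 went the other way. That unit was at 10.2 and 4.08 FPKM in the treated and 3.43 and 3.56 FPKM in the untreated samples (log2 difference 0.745). The unit XLOC_013160 overlapped between treatments (-0.383). The lower Fos level without overlap thus holds for the own-strand unit alone.

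Genes that act with AP-1 were examined as 5 lists. In WT adaptation 0 of 8 tested bZIP partners were called. Of 12 tested negative regulators 2 fell, where 6.68% of all units were called lower. These were Zfp36, whose product speeds decay of immediate-early transcripts, at 20.3 ± 6.41 in primary against 4.90 ± 2.84 FPKM in adapted cells (n = 3 each, limma adjusted p = 0.0372), and Dusp4, a MAP kinase phosphatase, at 62.1 ± 41.5 against 4.97 ± 7.86 FPKM (adjusted p = 0.0491). The wider of these changes was that of the phosphatase.

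Of 13 tested other immediate-early genes, 5 fell and none rose in WT adaptation, against 6.68% of all units called lower. The 3 with the smallest adjusted p were Klf2, at 21.4 ± 1.40 against 8.29 ± 1.43 FPKM (limma adjusted p = 0.0167), Klf4, at 28.04 ± 5.92 against 7.80 ± 2.42 FPKM (0.0210), and Ier2, at 49.8 ± 10.96 against 15.4 ± 3.76 FPKM (0.0211). Their transcription after serum was not measured here. The median log2 difference of this list was -1.27, with 11 of 13 below 0. Of 18 tested genes known as AP-1 targets, 2 were called, both lower, where 9.55% of all units were called in either direction and 6.68% lower. Fitted differences were below 0 for 12 of the 18 and above 0 for 6. Plau, which encodes urokinase, was 1 of those called and fell from 97.2 ± 8.58 to 28.2 ± 12.6 FPKM (limma adjusted p = 0.0219).

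The same lists were examined in CIZ1 null adaptation. Of 8 tested bZIP partners 1 rose, Maf, from 1.79 ± 0.319 to 10.99 ± 5.86 FPKM (n = 3 each, limma adjusted p = 0.0413). Of 12 negative regulators 2 fell, Dusp5, another MAP kinase phosphatase, at 21.2 ± 8.99 against 2.54 ± 1.33 FPKM (adjusted p = 0.0305), and Zfp36l2, an RNA-binding relative of Zfp36, at 72.2 ± 11.1 against 33.2 ± 5.05 FPKM (adjusted p = 0.0409). Among the 18 AP-1 targets 1 rose and 2 fell, where 4.86% of all units were called in either direction and 3.47% lower. Mmp3, which encodes stromelysin-1, rose from 9.16 ± 8.0 to 274 ± 231 FPKM (adjusted p = 0.0466). Hmga1, an architectural chromatin protein, fell from 259 ± 13.5 to 76.7 ± 15.3 FPKM (adjusted p = 0.0209), and Timp1, a metalloproteinase inhibitor, fell from 788 ± 199 to 219 ± 78.3 FPKM (adjusted p = 0.0355). No MAP kinase or ternary complex factor (0 of 15) and no other immediate-early gene (0 of 13) was called. Fitted differences of the immediate-early list were nevertheless below 0 for 11 of 13 here too. Their median was -0.99, against -0.04 over all units. No gene of any of the 5 lists was called in the other 4 comparisons. Reads of Zfp36, Zfp36l2, Maf, Hmga1 and Timp1 may be divided with other annotated units at their loci. Reads of Dusp4, Dusp5, Klf2, Klf4, Ier2, Plau and Mmp3 may be divided with opposite-strand units of the same name. The mean of that unit over the 15 samples was 25.2 beside 29.0 FPKM for Ier2, and 2.24 beside 18.2 FPKM for Dusp5. Each call named here for these lists was lost without at least 1 population. With embryo as a block the 6 calls named for CIZ1 null adaptation were all lost (limma adjusted p = 0.0708 to 0.105), as were those of Zfp36 (0.0767) and Ier2 (0.0553) in WT adaptation.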

How the data were processed

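RNA of 15 fibroblast samples was poly(A)-selected and sequenced without strand information. The authors trimmed reads with Cutadapt 1.8.3, aligned them to GRCm38 with HISAT2 2.0.5 and made the deposited FPKM per transcription unit with the Tuxedo tools, version 2.2.1. The deposited table of the authors' own comparisons was not used. Embryos were read by matching values to per-line tables of the study, in which the untreated transgenic sample S06, whose source name reads S13, is E13.17. S06 was counted with the primary CIZ1 null populations.

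From the FPKM, log2(FPKM + 1) was compared with limma 3.58.1 (R 4.3.3, eBayes with trend) over units with a mean of at least 1 FPKM in the samples of each comparison, with Benjamini-Hochberg adjustment over all units and a threshold of 0.05. The code was checked on simulated data. The strand of each unit was inferred from unit numbering and GENCODE M21, and motifs were searched on both strands. The members and lists were chosen with earlier results of these data known. Named were all 8 members, up to 3 called genes per list and comparison with the smallest adjusted p, and the 3 units most correlated with each member. Some genes that the rule names are not reported here. Depth per sample is known only relative to primary WT E14.4. Alternatives were another pseudocount, filter, normalization, sample set or weighting, an embryo block, and each sample left out. Same-embryo samples come from 1 animal, and their deviations from group means correlated at -0.021 to 0.211.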

Additional observations from a re-analysis of the deposited data

How the results depend on the processing

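Alternatives changed the number of members called in the adaptation comparisons only. In WT adaptation, 2 members were called, and 1 was called with no filter, a minimum mean of 5 FPKM, array weights or all 4 groups in a single fit, 0 with embryo as a replicate block, and 0 to 2 with each sample left out. In CIZ1 null adaptation, 1 member was called, and 0 were called with no filter, quantile normalization, the embryo block, all 4 untreated primary null samples or the 2 without transgene, 2 with array weights, and 0 to 2 with each sample left out. In the other 4 comparisons the count was 0 throughout. Over all units, the block lowered the calls from 1902 to 499 in WT and from 975 to 10 in CIZ1 null adaptation. Quantile normalization moved the split of higher and lower calls from 572 and 1330 to 982 and 1081 in WT, and from 280 and 695 to 351 and 501 in CIZ1 null adaptation, and the median of all units from -0.05 to 0.06 and from -0.04 to 0.06.

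Jun kept its direction in all 13 WT (log2 difference -1.46 to -1.08) and all 15 CIZ1 null alternatives (-1.24 to -0.77), and was called in 9 and 5 of them. Fos was called in 3 of the 12 WT alternatives in which it was tested (-1.14 to -0.78). The genes named from the other lists kept their sign in every alternative, and of these Dusp4, Plau, Klf2 and Klf4 were called with the embryo block.

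Signs that turned belonged to members that were not called. In CIZ1 null adaptation, Fos was 0.0091 with all 4 untreated primary null samples, and Fosl2 was -0.076 with array weights and -0.16 without the transgenic sample. In CIZ1 loss in primary cells Fos was -0.12 with all 4 null samples. Array weights gave Fosl2 -0.12 in CIZ1 loss in adapted cells, and -0.057 for Fosl2, -0.16 for Jun and -0.34 for Junb in the interaction.

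With each sample left out, log2 differences that crossed 0 were as follows. In WT adaptation Atf3 ran from -0.50 to 0.98. In CIZ1 null adaptation Fos ran from -1.24 to 0.64, Fosl2 from -0.16 to 0.28 and Atf3 from -0.026 to 2.17. In CIZ1 loss in primary cells Fos ran from -0.051 to 0.37 and Atf3 from -0.58 to 0.70. In adapted cells Fos ran from -0.19 to 1.70, Fosl2 from -0.16 to 0.27, Jun from -0.33 to 0.056, Jund from -0.045 to 0.57 and Atf3 from -0.10 to 2.10. In the interaction Fos ran from -0.33 to 1.56, Jun from -0.0026 to 0.38, Junb from -0.28 to 0.45, Jund from -0.39 to 0.22 and Atf3 from -0.17 to 2.03. With doxycycline Fosl1 ran from -0.13 to 1.51, Jun from -0.54 to 0.74, Junb from -0.89 to 0.58 and Jund from -1.03 to 0.36. The cause of these changes was not tested. With 2 or 3 populations in a group and depth known only in relative terms, levels near 1 FPKM, as for Fosb, are the least certain.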

Other observations

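Among units outside the family, those whose levels followed each member most closely over the 15 samples are given by the Pearson r of log2(FPKM + 1), as a description. The members' own opposite-strand units were left out, and their r reached 0.996 for Junb, 0.963 for Fosl2, 0.938 for Fos, 0.926 for Atf3 and 0.906 for Fosb. The samples share embryos and culture state, so that each r also carries the difference between primary and adapted cells. Jun was followed most closely by Trim8, Bcar1 and Khsrp (r = 0.969, 0.969 and 0.968). Junb was followed by an Egr3 unit (r = 0.945), 1700105P06Rik (r = 0.924) and Trib1 (r = 0.924), and Fosb by Ube2f (r = 0.904), Arc (r = 0.874) and another Egr3 unit (r = 0.865). Egr3 and Arc are themselves immediate-early genes. Jund was followed by Gm11175, which shares its locus, at r = 0.961, by Atxn2l at 0.908 and by a unit of Egfl8, Gm20460 and Ppt2 at 0.903. Fosl1 was followed by Dcaf15 and Srsf2 (r = 0.931 each) and Pole4 (r = 0.925), and Fosl2 by Cited2 (r = 0.887), Slc19a1 (r = 0.877) and Phlda1 (r = 0.873). Fos had Atg101 (r = 0.886), Kctd15 (r = 0.850) and Plekhf1 (r = 0.842), and Atf3 had Ndrg1 (r = 0.858), Tuft1 (r = 0.856) and St6gal1 (r = 0.852). For Fos and Atf3 the single adapted CIZ1 null E13.17 sample holds the highest level.

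The opposite-strand units at the Fos locus did not keep a fixed ratio to the own-strand unit. The ratio of the unit XLOC_013159 to the own-strand unit of Fos ran from 0 to 4.23 over the 15 samples, with a median of 1.11, and it was highest in doxycycline-treated S14, at 10.2 against 2.40 FPKM. For Atf3 the ratio of its larger opposite unit ran from 0.131 to 0.616.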
